A study of Homo sapiens with 2 samples.

Results

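Translation initiation factors are the proteins that bring a ribosome, an initiator tRNA and a messenger RNA together at the start codon. Their messenger RNA levels were read on 2 arrays of an EBV-transformed lymphoblastoid cell line, that is, B cells made immortal with Epstein-Barr virus. Probe sets were taken when their single annotated gene symbol began with EIF followed by a digit from 1 to 6, so the eIF2 kinases and the 4E-BPs are included. This gave 107 of the 36289 probe sets used, and 50 of the 16716 genes. Of these, 2 are antisense RNA genes (4 probe sets), and 1 gene on the Y chromosome (2 probe sets) was left out of all values, which leaves 47 initiation factor genes with 101 probe sets.

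The series has 1 group with replicates 1 and 2, each hybridised to 1 Human Genome U133 Plus 2.0 array. The titles write the line as GM06690 and the growth protocol as GM06990, and no treatment is given. The cells grew in RPMI1640 with fetal calf serum, antibiotics and glutamine. The labels do not state whether separate cultures were grown, so differences between the replicates may be technical. As only 1 group was measured, conditions cannot be compared, and the questions are which factors gave a signal above background, whether the probe sets of a factor gave the same answer, and how closely the arrays repeated each value.

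Initiation runs in steps, each with its own factors. eIF2 carries the initiator tRNA as a complex with GTP and is recharged by eIF2B, while eIF1, eIF1A, eIF3 and eIF5 join it on the small ribosomal subunit. eIF4E binds the cap of the messenger RNA, eIF4G links the cap to eIF3, and the helicase eIF4A with eIF4B and eIF4H unwinds the leader. The large subunit then joins with eIF5B. The main switches are the phosphorylation of eIF2 by stress kinases and the capture of eIF4E by 4E-BPs, which mTOR relieves. Growing lymphoblastoid cells are known for a high demand for protein synthesis.

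Signals below are log2 values of the deposited intensities. A probe set or gene is called above background here if its signal on each array was over that array's background level, the 95th percentile of 95 measured reference genes of other tissues (liver, brain, muscle, eye and others). The level was 5.68 on replicate 1 and 5.69 on replicate 2. For each gene the probe set with the highest mean signal was used. Probe sets differ in affinity, so values of different probe sets are not ranked against each other. The arrays read RNA of a whole culture, so fewer cells with a transcript and less transcript per cell cannot be told apart. The cell type was checked by fixed markers. All 7 measured B-cell markers lay above background (8.92 to 13.85 on single arrays). Of 16 markers of T, NK, myeloid, fibroblast, epithelial and erythroid cells, 15 were not above it and HBB was (6.17 ± 0.24, SD, n = 2). Pearson r between the arrays was 0.997 across all probe sets, and probe sets are not independent replicates.

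Nearly every initiation factor gene gave a signal above background: 44 of 47 (93.6%) did, against 52.0% of all 16716 genes and 58.2% of the 14568 protein-coding genes. The median mean signal was 11.43 over the 47 genes and 6.10 over all genes. The 3 genes not above background were EIF4A2, EIF4E3 and EIF5A2. The call for EIF4A2 rests on 1 probe set, and 2 further ones that list EIF4A2 among 6 symbols were above background. EIF4E3 was near the level and was above it with the level at the 75th percentile. No initiation factor gene was above background on 1 array only. Such genes were few overall in the series: of all 16716 genes, 8843 were above background on replicate 1, 8818 on replicate 2 and 8700 on both. The absence of such members therefore says little about them. Genes with several probe sets have more chances to pass, so the counts were split. Of the members with at least 2 probe sets 24 of 25 were above background, against 65.2% of all such genes, and of those with 1 probe set 20 of 22 were, against 41.7%. By probe set, 91 of 101 were above background, against 47.5% of all 29493 probe sets with 1 symbol.

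**Figure D1:**
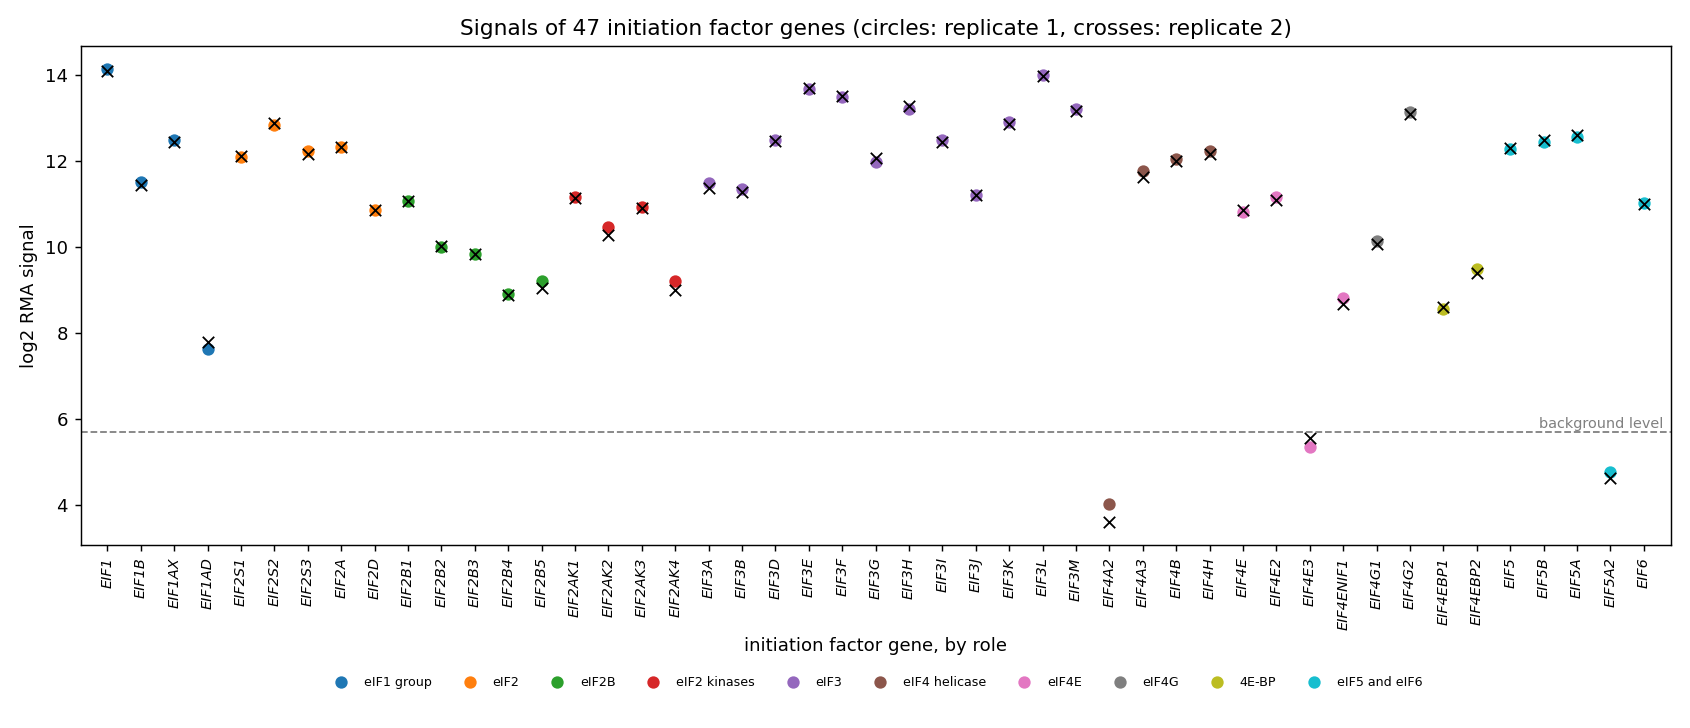
The log2 RMA signal (vertical axis) is plotted for each of the 47 initiation factor genes (horizontal axis, ordered and coloured by role), with circles for replicate 1 and crosses for replicate 2; the dashed line is the mean of the background levels of the arrays (5.68 and 5.69). EIF4A2, EIF4E3 and EIF5A2 lie below the line on both arrays, and the circle and cross of the 44 other genes nearly coincide.

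The eIF1 group was above background in 4 of 4 genes. EIF1, which keeps the scanning ribosome open until it meets a start codon, read 14.14 and 14.09 on replicates 1 and 2. Its paralog EIF1B read 11.50 and 11.43. EIF1AX, the X-linked gene of eIF1A, read 12.48 and 12.44, and its 4 probe sets were all above background. EIF1AD, whose product carries an eIF1A-like domain, read 7.61 and 7.79 with 1 probe set. It lay 1.93 over the level on the array nearer to it. Of the 6 EIF1 probe sets 5 were above background, and the exception read 5.31 and 5.64.

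All 3 subunits of eIF2 and all 5 of its exchange factor eIF2B were above background, as were the related EIF2A and EIF2D, 10 of 10 genes in all. EIF2S1, the alpha subunit that stress kinases phosphorylate, read 12.09 and 12.11. EIF2S2, the beta subunit, read 12.83 and 12.87, and EIF2S3, the X-linked gamma subunit that binds GTP and the tRNA, 12.22 and 12.16. By the probe set used for each gene, none of these subunits differed between the arrays by more than 0.05. Further EIF2S1 probe sets above background differed by -0.13 and 0.13, replicate 2 minus replicate 1. EIF2A and EIF2D, which can deliver tRNA to the ribosome without eIF2, read 12.31 and 12.32, and 10.85 on both arrays. The subunits of eIF2B were EIF2B1 (11.05 on both arrays), EIF2B2 (9.99 and 10.01), EIF2B3 (9.82 and 9.83), EIF2B4 (8.91 and 8.87) and EIF2B5 (9.19 and 9.04). EIF2B5, the catalytic subunit, had a further probe set that was not above background (5.20 and 5.39).

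All 4 eIF2 kinases were above background. EIF2AK1 (HRI, which responds to haem shortage) read 11.15 and 11.14, and EIF2AK3 (PERK, the kinase of endoplasmic reticulum stress) 10.93 and 10.91. EIF2AK2 (PKR, which binds double-stranded RNA and is induced by interferon) read 10.46 and 10.28 by its brighter probe set and 10.04 and 10.18 by the other. EIF2AK4 (GCN2, which senses uncharged tRNA) read 9.10 ± 0.14 (SD, n = 2), higher on replicate 1. All 4 were slightly higher on replicate 1, by at most 0.20, as were 57.1% of all genes above background. EIF2AK1 (-0.00) and EIF2AK3 (-0.02) hardly differed, and the second EIF2AK2 probe set was higher on replicate 2 by 0.14. Kinase activity is not read by these levels.

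The eIF3 complex, the largest of the factors, was above background in 12 of 12 measured subunit genes. EIF3A and EIF3B, which form its core, read 11.49 and 11.37, and 11.33 and 11.26. EIF3D, a subunit that can itself bind caps, read 12.48 and 12.45. EIF3E (13.67 and 13.68), EIF3F (13.48 and 13.50), EIF3G (11.97 and 12.06), EIF3H (13.20 and 13.27) and EIF3I (12.47 and 12.43) were all far above the level. So were EIF3K (12.90 and 12.85), EIF3L (13.99 and 13.96), EIF3M (13.20 and 13.15) and EIF3J (11.20 on both arrays), a loosely held subunit. By the probe set used for each gene, no subunit differed between the arrays by more than 0.12. A further EIF3B probe set above background differed by -0.18 (10.57 and 10.38). EIF3F had a second probe set at 3.23 and 3.35, not above background, and EIF3F was not above background once _x_at and _s_at probe sets were set aside. Those endings mark probe sets whose probes may match more than 1 transcript.

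In the eIF4 group, counted with EIF4ENIF1 and the 4E-BPs, 10 of 12 genes were above background. It covers cap-binding, scaffold and helicase genes. EIF4E, the cap-binding protein, read 10.80 and 10.85, with all 3 probe sets above background. EIF4E2 (4EHP), a relative that binds caps and represses translation, read 11.16 and 11.08, with 4 of 4 above. EIF4E3, another relative, had none of 3 probe sets above background, at 5.35 and 5.54, 5.19 and 4.89, and 3.55 and 4.21. Its highest probe set was 0.33 below the level of replicate 1, so the call depends on where the level is set. With the level at the 75th percentile in place of the 95th, EIF4E3 was above background, and EIF4A2 and EIF5A2 were not. On the array with the lower margin over that level, the margin was -0.03 for EIF5A2 and -1.04 for EIF4A2. EIF5A2 therefore missed the call narrowly in that setting. EIF4ENIF1, which carries eIF4E into the nucleus, read 8.81 and 8.67.

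The scaffold EIF4G1 read 10.12 and 10.05. EIF4G2 (DAP5), a scaffold that lacks the eIF4E-binding part, read 13.13 and 13.08. A second EIF4G2 probe set was just over the level (5.84 and 5.80) and the third was not above it (4.81 and 5.14). Of the inhibitors of eIF4E, EIF4EBP1 read 8.56 and 8.60 by its only probe set, and EIF4EBP2 read 9.49 and 9.39, with 4 of 5 probe sets above background and the fifth at 3.54 and 3.63. The binding of 4E-BPs to eIF4E depends on phosphorylation, which these arrays do not read.

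The helicase cofactors EIF4B (12.03 and 11.98) and EIF4H (12.23 and 12.15) were above background. So was EIF4A3 (11.76 and 11.63), a helicase of the exon junction complex. EIF4A2 was not above background by its only probe set with 1 symbol, at 4.01 and 3.60. The call rests on that probe set alone, and 2 further probe sets list EIF4A2 together with the small RNA genes that lie in its introns. They read 13.46 and 13.44, and 8.81 and 8.93, above background on both arrays, and were assigned to no gene here because they carry 6 symbols each.

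In the eIF5 and eIF6 group 4 of 5 genes were above background. EIF5, which makes eIF2 hydrolyse GTP, read 12.28 and 12.29, and all 5 of its probe sets were above background. EIF5B, the GTPase that joins the subunits, read 12.44 and 12.48, with 6 of 6 above. EIF6, which keeps the large subunit from joining too early, read 11.02 and 11.00. EIF5A, a hypusine-bearing protein that helps ribosomes through difficult stretches, read 12.55 and 12.59, with 3 of 3 above. Its paralog EIF5A2 was not above background, at 4.75 and 4.61, by a single probe set that ends in _s_at. The antisense RNA genes EIF1B-AS1 (3 probe sets) and EIF2AK3-AS1 (1 probe set) were not above background either, with values between 4.56 and 5.47.

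Probe sets of a factor mostly gave the same call. Of the 25 genes with at least 2 probe sets, 19 had all above background, 1 (EIF4E3) had none, and 5 had some: EIF1, EIF2B5, EIF3F, EIF4G2 and EIF4EBP2. Over all 7350 genes with at least 2 probe sets, 32.9% had all above background and 32.3% had some. The members thus had mixed calls in 20% of cases. In each of the 5 mixed genes 1 probe set was not above background. The cause was not tested.

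**Figure D2:**
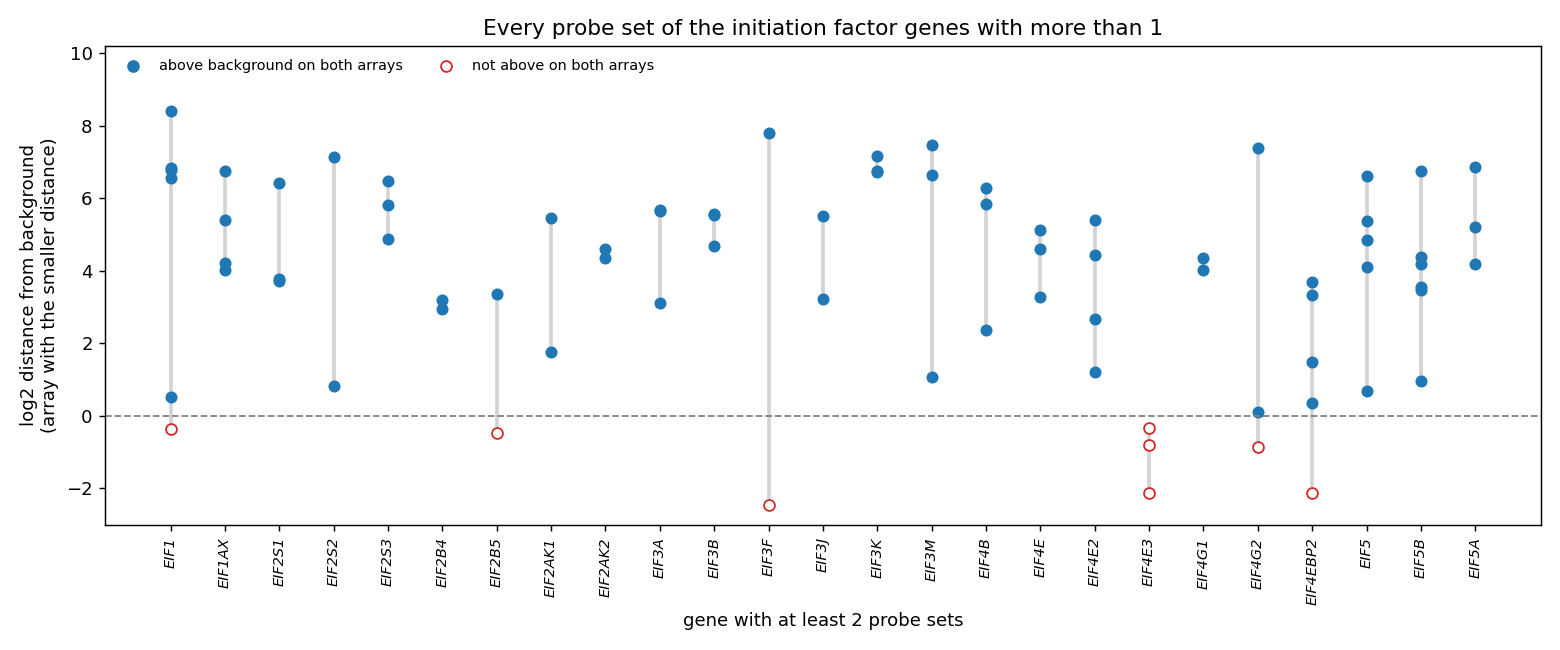
Each point is 1 probe set of the 25 initiation factor genes with at least 2 probe sets; the vertical axis is its log2 distance from the background level on the array where that distance is smaller, and the dashed line at 0 is the level. Filled points are above background on both arrays and open points are not; EIF4E3 has only open points, and EIF1, EIF2B5, EIF3F, EIF4G2 and EIF4EBP2 have 1 open point each.

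The arrays repeated the initiation factors closely. By the probe set used for each gene, none of the 44 genes above background differed by more than 1.5-fold (0.58 on the log2 scale). Of all 8700 genes above background 0.299% did. None of the 44 differed by more than 1.2-fold (0.26), where 6.89% of all did. The median difference, replicate 2 minus replicate 1, was -0.03 over the members and -0.02 over all genes above background, and the median size was 0.04 and 0.07. By the probe set used, the largest differences were those of EIF2AK4 (-0.20), EIF2AK2 (-0.19) and EIF1AD (0.18). Some further probe sets above background differed by more. Those of EIF4G1 (-0.30) and EIF4EBP2 (0.28) were past 1.2-fold, and no member probe set above background was past 1.5-fold. Bright genes repeat better, and the members are bright. Among genes with a mean signal from 12 to 16 the median size was 0.04 for 21 members and 0.03 for all 602 genes, and from 10 to 12 it was 0.06 for 14 members and 0.05 for all 2120. From 8 to 10 it was 0.07 for 8 members and 0.07 for all 3333 genes. The members therefore repeated about as well as other genes of like signal. EIF2AK2 was the 1 member of 44 outside the central 95% of genes of like signal. Such a band leaves some genes outside by construction, so this does not set EIF2AK2 apart. Its other probe set differed the other way (0.14).

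**Figure D3:**
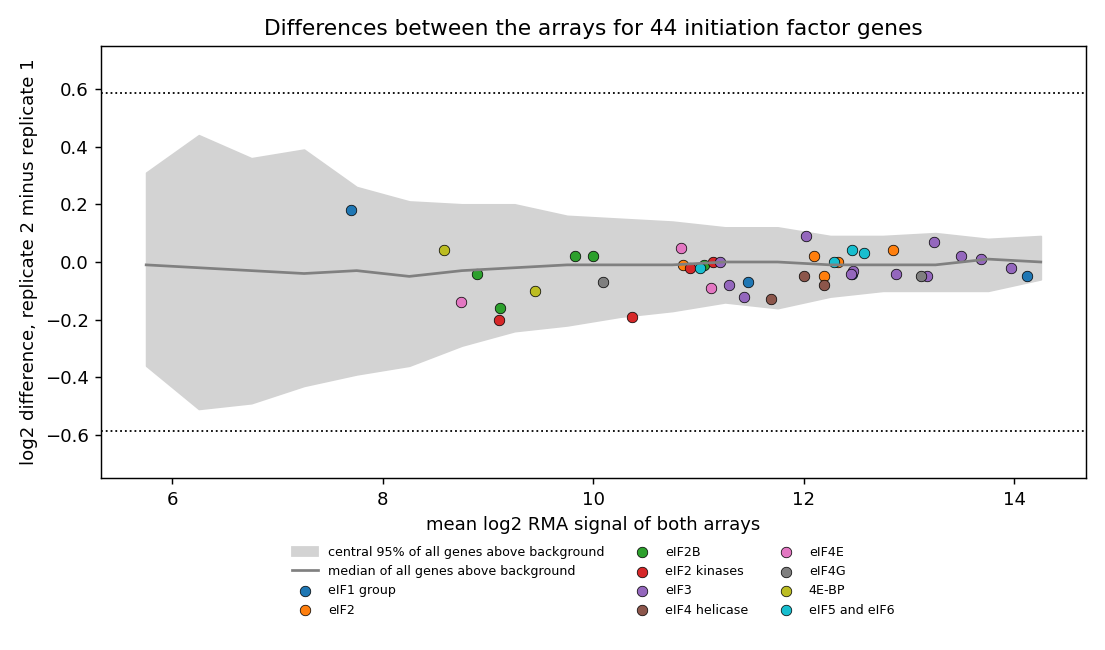
The log2 difference between the arrays (vertical axis, replicate 2 minus replicate 1) is plotted against the mean log2 signal for the 44 initiation factor genes above background, coloured by role; the grey band holds the central 95% of all genes above background, the grey line is their median, and the dotted lines mark 1.5-fold. The points lie between -0.20 and 0.18, inside the dotted lines, and EIF2AK2 lies at the lower edge of the band.

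Of the 44 genes, 29 were higher on replicate 1 and 15 on replicate 2, where 57.1% of all genes above background were higher on replicate 1. The share of members was 65.9%. After a loess curve was removed the shares were 56.8% of members and 50.7% of all genes, and after a second quantile normalization 63.6% and 50.1%. Both shares were 56.8% where each gene was given the average of its probe sets. Where a factor had at least 2 probe sets above background, all of them pointed the same way in 10 of 22 genes (45.5%), against 41.2% of 3482 genes overall. The genes have different numbers of probe sets, and more probe sets make a shared direction harder to reach.

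Some of these genes also share the letters at which their transcripts start. A terminal oligopyrimidine start is a C at the first transcribed base followed by a run of C and T. It is known from ribosomal protein and elongation factor messenger RNAs, whose translation follows mTOR through LARP1. Of the 47 genes 39 had a promoter window in a RefSeq table (build GRCh38.p14, 250 bases before to 50 after a listed start). EIF2S2, EIF2AK1, EIF3A, EIF3E, EIF3G, EIF3H, EIF3L and EIF4EBP1 had none. A start with C and then at least 4 bases of C or T was found in 9 of 39 genes (23.1%): EIF2S3, EIF2A, EIF2D, EIF3D, EIF3F, EIF3K, EIF3M, EIF4A2 and EIF4B. It was found in 5.14% of all 27305 genes with a window, in 7.84% of measured genes above background and in 4.28% of those not above it. It was found in 4 of 7 eIF3 subunits, 5 of 32 other members (15.6%) and 34 of 50 cytosolic ribosomal protein genes. Of the genes listed under elongation and release, 2 of 10 had it. That list was not limited to cytosolic elongation and release factors and also holds mitochondrial factors and the kinase EEF2K.

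The 80 bases from 50 before to 30 after the start are shown for 6 of these genes, since the start letters are what they share. They come from EIF3D (chr22:36529137-36529216, minus strand), EIF3F (chr11:7987287-7987366, plus strand), EIF3K (chr19:38619138-38619217, plus strand), EIF3M (chr11:32583781-32583860, plus strand), EIF4B (chr12:53006406-53006485, plus strand) and EIF4A2 (chr3:186783527-186783606, plus strand). The elongation factor gene EEF2 (chr19:3985434-3985513, minus strand) and the ribosomal protein gene RPS6 (chr9:19380207-19380286, minus strand) are given as known examples. EIF3I (chr1:32222357-32222436, plus strand) and EIF4E (chr4:98929104-98929183, minus strand) are given as members without such a start. Capitals mark the unbroken run of C and T that begins at the first transcribed base.
EIF3D: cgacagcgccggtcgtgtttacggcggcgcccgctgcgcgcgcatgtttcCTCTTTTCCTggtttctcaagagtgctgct
EIF3F: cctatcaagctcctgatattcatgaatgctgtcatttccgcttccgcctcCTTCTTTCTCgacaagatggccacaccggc
EIF3K: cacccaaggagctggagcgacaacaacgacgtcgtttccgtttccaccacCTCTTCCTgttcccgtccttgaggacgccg
EIF3M: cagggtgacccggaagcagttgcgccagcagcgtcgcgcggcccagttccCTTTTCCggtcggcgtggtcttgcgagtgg
EIF4B: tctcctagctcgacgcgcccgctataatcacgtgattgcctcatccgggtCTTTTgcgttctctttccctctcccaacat
EIF4A2: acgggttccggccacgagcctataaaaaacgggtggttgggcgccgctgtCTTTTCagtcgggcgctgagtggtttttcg
EEF2: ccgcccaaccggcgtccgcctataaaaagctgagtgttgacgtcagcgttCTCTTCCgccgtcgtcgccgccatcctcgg
RPS6: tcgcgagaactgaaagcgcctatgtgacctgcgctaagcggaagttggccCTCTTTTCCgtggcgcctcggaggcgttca
EIF3I: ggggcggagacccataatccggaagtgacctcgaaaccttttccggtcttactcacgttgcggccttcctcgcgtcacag
EIF4E: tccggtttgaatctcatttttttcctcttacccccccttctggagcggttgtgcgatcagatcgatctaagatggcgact
The run was 10 bases long in EIF3D and in EIF3F, 8 in EIF3K, 7 in EIF3M, 6 in EIF4A2 and 5 in EIF4B, and 7 in EEF2 and 9 in RPS6. Listed starts can be off by some bases. With the start allowed up to 5 bases either side, 17 of 39 members had such letters (43.6%), but so did 30% of measured genes above background. By single start, it was 9 of 53 listed starts of the members (17.0%) and 5.48% of those of genes above background. These shares are descriptions with no test. A match describes the listed start and is not a measurement of where transcription begins in these cells.

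Other promoter letters were searched on both strands of the whole 300 bases. The E-box CACGTG, the letters that MYC and MAX bind, was in 11 of 39 members (28.2%), 13.4% of genes above background and 8.77% of all genes. The 11 include EIF4E, EIF4G1, EIF4B, EIF4H, EIF4A3, EIF1B, EIF2B3, EIF2AK2, EIF3F and EIF3K, and also EIF5A2, which was not above background. The ETS letters CCGGAAG were in 12 of 39 members (30.8%) and 25.2% of genes above background. The NRF1 letters GCGCATG were in 5 members (12.8%) and 9.57%, and the YY1 letters AAGATGG in 5 members (12.8%) and 10.9%. Over all genes with a window these 3 were in 12.2%, 5.3% and 7.11%. With a longer form of the NRF1 letters (GCGC, any base, T and GCGC again) the shares were 23.1% of members, 14.9% of genes above background and 6.98% of all genes. The TATA box, searched as TATAAA on the gene's strand from 40 to 20 bases before the start, was in 1 of 39 members, EIF4A2, and in 2.92% of all genes. The median ratio of observed to expected CpG was 0.91 in members, 0.84 in genes above background and 0.52 in genes not above it.

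**Figure D4:**
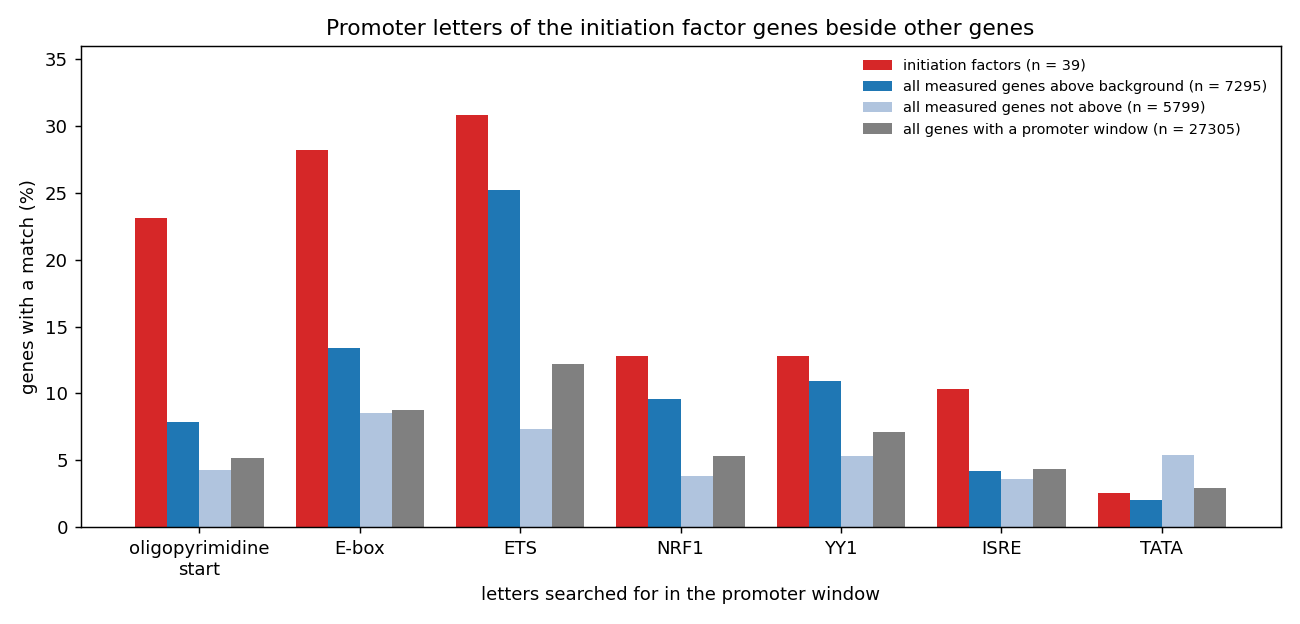
Bars give the percentage of genes whose promoter window holds each set of letters (vertical axis), for the 39 initiation factor genes with a window, all measured genes above background (7295), all measured genes not above it (5799) and all genes with a window (27305). The members' bar is the tallest of the 4 for each set of letters but TATA: the oligopyrimidine start (23.1%), the E-box (28.2%), ETS (30.8%), NRF1 (12.8%), YY1 (12.8%) and the interferon element (10.3%). For NRF1 and YY1 the members' bar holds 5 of 39 genes each, so its lead over genes above background (9.57% and 10.9%) is small. The interferon element was searched because of EIF2AK2, which is counted in the members' bar. The TATA bar is tallest in genes not above background (5.41%).

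The interferon element was looked for because EIF2AK2 is an interferon-induced gene. EIF2AK2 is itself counted below, so the share of members is not free of that choice. The letters GAAA, any 2 bases and GAAA again, searched on both strands, were in 4 of 39 members (EIF2A, EIF2AK2, EIF3K and EIF6), in 4.22% of genes above background and in 4.38% of all genes. In EIF2AK2 (chr2:37156951-37157030, minus strand) they lie across the listed start, and capitals mark them in the same stretch of 80 bases.
EIF2AK2: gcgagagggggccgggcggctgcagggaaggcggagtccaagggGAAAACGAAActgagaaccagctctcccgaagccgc

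The partners and regulators of these factors were also mostly above background. From a list of 43 further translation genes 38 were measured. Of these 34 (89.5%) were above background, against 52.0% of all genes and 58.2% of protein-coding genes. They were 23 of 26 partners and regulators and 11 of 12 genes listed under elongation and release. The elongation and release part also holds the mitochondrial factors TSFM, TUFM, MTIF2 and MTIF3 and the kinase EEF2K. ABCE1, which recycles ribosomes, read 11.60 and 11.65, and DENR and MCTS1, which act together in reinitiation, read 11.18 and 11.23, and 12.10 and 12.16. The cap-bound LARP1 read 12.16 and 11.99. The kinase MTOR, which acts on the 4E-BPs, read 7.16 and 6.72, with 1 of 2 probe sets above background. The members of the list not above background were PAIP2B (5.52 and 5.32), PDCD4 (3.99 and 4.36), RPTOR (5.61 and 5.29) and EEF1A2 (5.19 on both arrays), each by 1 probe set. PDCD4 inhibits eIF4A, PAIP2B inhibits the poly(A)-binding protein, RPTOR is the mTORC1 subunit that recruits 4E-BPs, and EEF1A2 is an elongation factor of muscle and nerve. EEF1A1, the widespread form, read 15.00 on both arrays. The enzymes DHPS (9.78 and 9.86) and DOHH (6.43 and 6.34), which make the hypusine of eIF5A, were both above background, DOHH by 1 of 3 probe sets. The largest difference between the arrays among the genes above background on this list was that of MTOR (-0.44), followed by that of PPP1R15A (-0.34), the phosphatase subunit that reverses eIF2 phosphorylation.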

How the data were processed

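RNA of 2 samples of 1 lymphoblastoid line was measured on 1 array each. The deposited values are probe set intensities made with RMA, per the submitters' processing notes, of a version not given in the sources used here. The method corrects background, normalizes quantiles between arrays and summarises the probes of a set. These linear intensities were turned into log2 values with Python 3.11.15 and pandas 2.3.3. RMA gives no detection call, and quantile normalization hides changes in total messenger RNA. The number of arrays limits the precision. The probe sets used are not the whole array design, so a gene may have further ones, not analysed here.

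Gene symbols are those of the platform annotation, brought up to date through Entrez IDs and a RefSeq table (GRCh38.p14, names only). Of 36289 probe sets, 29493 had 1 symbol (29461 matched by ID), 1407 had several and 5389 had none. The background reference held 109 listed genes, of which 95 were measured, and 4 of them exceeded the level on both arrays. Every member gene may be named, with both values in full for members not above background, with mixed calls or first in their group, and for the largest differences; of the other translation genes, for the first 3 and all not above background, and further ones as examples chosen after their values were seen. The members, lists, promoter letters and sequences shown were chosen with earlier results of these data known. The shorter NRF1 letters were chosen after the shares with the longer form had been seen; both are given. No test between groups was possible and no p-values are given. The scripts were tested on simulated arrays. Calls were scored there only for genes well away from the level, so calls near it were not covered. The alternatives were other background percentiles (75 and 99), probe sets without _x_at and _s_at, the mean or, chosen after seeing the data, the first probe set of a gene, a second quantile normalization, loess (statsmodels 0.14.6, span 0.3), other folds (1.2 and 2) and each replicate alone.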

Additional observations from a re-analysis of the deposited data

How the results depend on the processing

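The count of 44 of 47 initiation factor genes above background was 44 with either replicate left out, with the level at the 99th percentile, with the mean of all probe sets and after a second quantile normalization or loess, 45 at the 75th percentile, where EIF4E3 was added, and 42 with the first probe set of each gene by identifier, where EIF2B5 and EIF4EBP2 were lost. Without _x_at and _s_at probe sets 33 genes could be measured, of which 30 were above background and EIF3F was the 1 call lost. Fewer genes and probe sets were then counted. The counts were 42 of 49 for probe sets (91 of 101 before) and 7 of 8 for eIF3, where EIF3F was lost (12 of 12 before). They were 2 of 2 for the eIF2 kinases and 5 of 5 for the eIF1, eIF5 and eIF6 group. No member gene above background differed between the arrays by more than 1.5-fold under any normalization or choice of probe sets run. By the probe set with the highest mean signal, none differed by more than 1.2-fold or 2-fold on the values as deposited. The median difference lay between -0.04 and -0.01. The differences cannot be computed with a replicate left out. For all genes the count above background was 8700 of 16716, and 10625 of 16716 at the 75th percentile. It was 6134 without _x_at and _s_at probe sets, where only 13384 genes could be measured. Other translation genes above background numbered 23 of 31 without _x_at and _s_at probe sets and 28 of 38 with the first probe set. At most they numbered 37 of 38, at the 75th percentile. No paired analysis was possible because there is 1 group. Near the level, signal over background limits the calls, as for EIF4E3 and, at the 75th percentile, EIF5A2.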

Other observations

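Further probe sets list an initiation factor among several symbols and were assigned to no gene. There were 9 of them, and all 9 were above background on both arrays. The 3 that list EIF4A1, the main helicase of initiation, beside small nucleolar RNA genes read 13.83 and 13.79, 13.90 and 13.85, and 8.75 and 8.80 on replicates 1 and 2. The 3 that list EIF3C together with its near-identical copy EIF3CL read 11.97 and 11.99, 12.21 and 12.13, and 12.05 and 12.01. The probe set that lists EIF4EBP3 beside ANKHD1 and their readthrough transcript read 8.09 and 7.87, and cannot separate the 3 symbols. The other 2 list EIF4A2. With these, each subunit type of eIF4F and eIF3C had at least 1 probe set above background that lists it, although for EIF4A1, EIF4A2, EIF3C and EIF4EBP3 the signal cannot be given to 1 gene.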
